A study of Mus musculus with 4 samples.

Results

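The fibroblast growth factor (FGF) genes described here are 10 genes chosen by their Ensembl IDs: the ligands Fgf1, Fgf2, Fgf7 and Fgf10, the receptors Fgfr1, Fgfr2 and Fgfr3, and the feedback genes Spry1, Spry2 and Dusp6. All 10 were among the 28399 gene IDs measured, and their symbols were given with the choice of genes and not by the array table. RNA came from 2 structures of the pubertal mammary gland of C57/BL6 female mice with no other treatment: terminal end buds (TEBs), the bulbous tips that lead the growing ducts, and ducts, the epithelial tubes behind them. Both were freed from the inguinal glands with collagenase and microdissected, and a sample stood for roughly 300 to 400 TEBs or ducts, from pooled material. Labels disagree on the age, with 5 to 6 weeks for the mice and 6 to 7 weeks when they were killed. There were 2 TEB arrays and 2 duct arrays, described by the submitters as technical replicates of pooled material, so every spread below is a spread between arrays and not between mice.

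FGF ligands are secreted proteins that bind receptor tyrosine kinases together with heparan sulfate. The receptors signal through Ras and the kinase ERK, and ERK signalling raises the transcription of its own inhibitors, among them the Sprouty genes and Dusp6. In the mouse mammary gland the stroma makes Fgf7 and Fgf10, the epithelium carries the splice form of Fgfr2 that receives them, and loss of Fgfr2 from the epithelium impairs TEBs and duct elongation. The array gave 1 value per gene, so the splice forms of a receptor could not be told apart.

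Among the 10 genes, Spry2 and Fgfr3 differed most between the structures. Spry2 stood 1.79-fold higher in TEBs than in ducts, and Fgfr3 stood 1.42-fold lower. On the deposited values Fgfr2, Fgf1 and Dusp6 were higher in both TEB arrays, a separation that quantile normalization removed for all 3 and median centring for Fgf1. Fgfr1 and Fgf7 were lower in both TEB arrays under each scaling, and Fgf2, Fgf10 and Spry1 overlapped between the structures. None of the 10 passed the test over all genes, for which a gene needed a change of 1.5-fold or more and a p from limma that stayed under 0.05 after Benjamini-Hochberg adjustment. The share of all genes called in that test was 0%, and its smallest adjusted p over all genes was 0.0657 from limma. At an unadjusted p under 0.05, 3540 genes were higher and 2064 lower in TEBs, 12.5% and 7.27% of all genes, and of the 10 genes these included Spry2 as higher and Fgfr3 as lower. With 2 arrays against 2, an exact two-sided permutation test of a single gene cannot go below p = 0.333.

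The arrays differed in their medians, and the source of that was not tested. Array medians were 6.41 and 6.35 log2 units for TEBs and 6.34 and 6.20 for ducts, and the median of all genes' differences was 0.11 log2 units, higher in TEBs. Each difference below is therefore given on the deposited values and again after each array was centred on its median and after the 4 arrays were quantile-normalized. The table named no other gene, so other genes of the pathway and markers of epithelium, fat cells, fibroblasts and other stroma were not analysed here. In pooled tissue, fewer cells of a type and less RNA per cell cannot be told apart, which applies to all 10 genes.

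**Figure D1:**
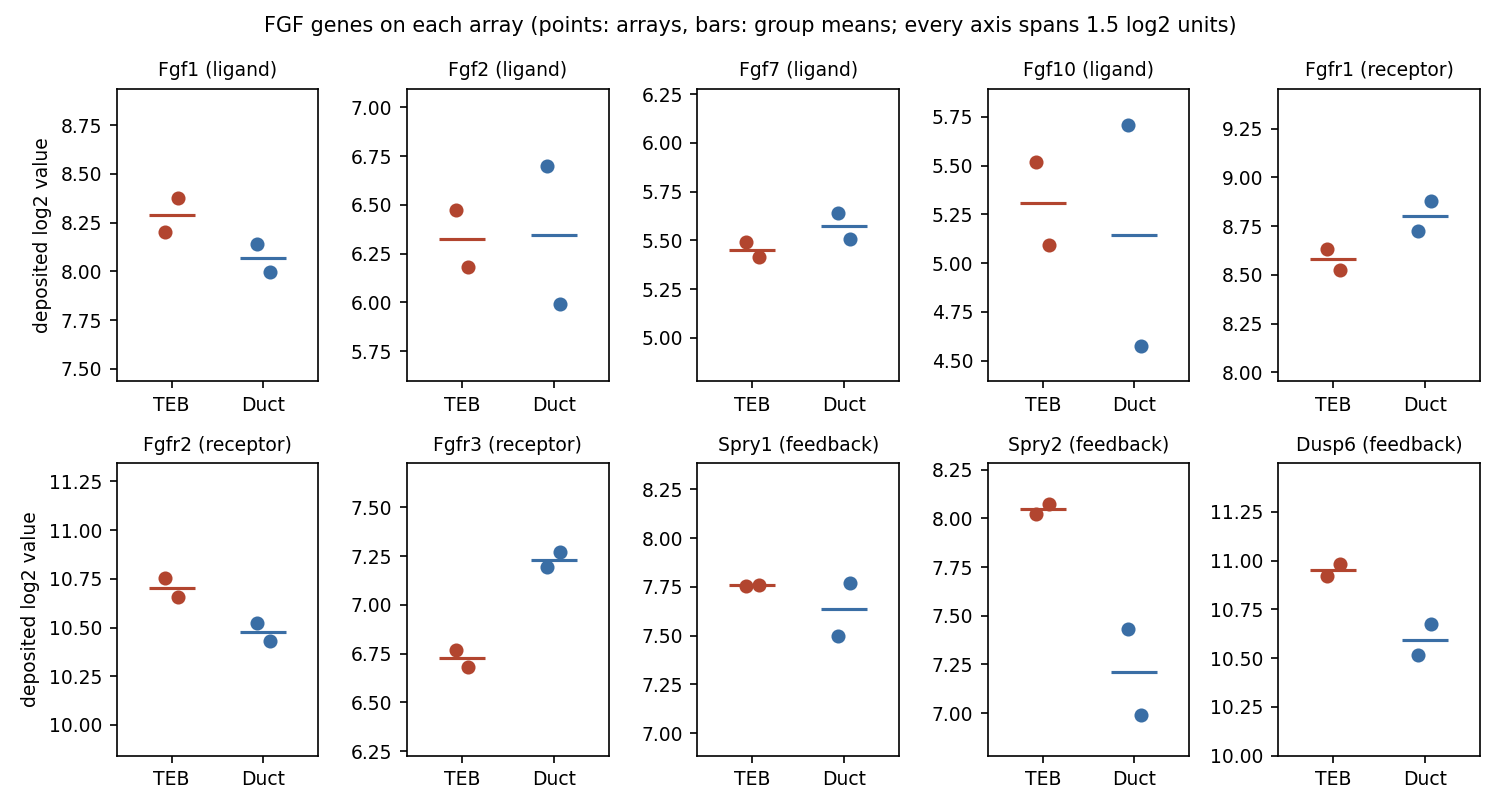
Deposited log2 values of the 10 FGF genes (vertical axes, each spanning 1.5 log2 units) on the 2 TEB arrays and the 2 duct arrays. Points are arrays and horizontal bars are group means. The structures separate most clearly for Spry2 (8.02 and 8.07 in TEBs, 7.43 and 6.99 in ducts) and Fgfr3 (6.77 and 6.68 in TEBs, 7.20 and 7.27 in ducts), while the duct arrays lie far apart for Fgf10 (5.71 and 4.58).

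Fgf7 and Fgf10, the stromal ligands that act on epithelial Fgfr2, lay below the array median on all 4 arrays. Fgf7 (ENSMUSG00000027208) measured 5.49 and 5.41 log2 units on the TEB arrays, against 5.64 and 5.51 on the duct arrays. Both TEB values lay below both duct values, by a margin of 0.019 log2 units, and the difference was -0.12 (SE 0.17, adjusted p = 0.73 from limma). The Fgf7 margin was 0.22 and the difference -0.24 after median centring, and they were 0.15 and -0.20 after quantile normalization. Fgf10 (ENSMUSG00000021732) measured 5.52 and 5.09 on the TEB arrays, against 5.71 and 4.58 on the duct arrays. Its duct arrays enclosed both TEB values, and their gap of 1.13 log2 units was wider than that of 94.3% of all genes. The Fgf10 difference of 0.16 (adjusted p = 0.86 from limma) had a 95% interval from -0.99 to 1.32, and it was 0.73 without duct replicate 1 and -0.40 without duct replicate 2. It was 0.050 after median centring and 0.12 after quantile normalization, with overlap in both. Averaged over the 4 arrays, Fgf7 was brighter than 37.8% of genes and Fgf10 than 34.0%. Without detection calls, signal at that brightness could not be set apart from background.

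Fgf1 (ENSMUSG00000036585), a ligand that can activate all FGF receptors, measured 8.20 and 8.37 log2 units in TEBs, against 8.14 and 8.00 in ducts. Both TEB arrays lay above both duct arrays, with a difference of 0.22 (SE 0.18, adjusted p = 0.54 from limma). After quantile normalization the Fgf1 difference was 0.024 and the structures overlapped. They overlapped after median centring too, at a difference of 0.11. Fgf2 (ENSMUSG00000037225), known as basic FGF, measured 6.47 and 6.18 in TEBs, against 6.70 and 5.99 in ducts. The Fgf2 duct arrays enclosed the TEB arrays and the difference was -0.017 log2 units, with a 95% interval from -0.83 to 0.79. It was -0.13 after median centring and -0.12 after quantile normalization, with overlap in both. The ligands as a group had a median difference of 0.073 log2 units, beside 0.11 for all genes, and -0.050 after quantile normalization.

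Fgfr2 (ENSMUSG00000030849), the receptor through which Fgf7 and Fgf10 act on mammary epithelium, was bright on every array. It measured 10.75 and 10.65 log2 units in TEBs, against 10.53 and 10.43 in ducts. Both TEB arrays lay above both duct arrays, with a difference of 0.23 (SE 0.17, adjusted p = 0.51 from limma). The Fgfr2 difference was 0.11 after median centring, where both TEB arrays still lay above both duct arrays. It was 0.029 with overlapping structures after quantile normalization, with a 95% interval from -0.39 to 0.45.

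The other receptors lay on the opposite side. Fgfr1 (ENSMUSG00000031565), which in many tissues is the receptor of mesenchymal cells, measured 8.63 and 8.53 log2 units in TEBs, against 8.73 and 8.88 in ducts. The structures did not overlap, and the difference was -0.22 (SE 0.18, adjusted p = 0.52 from limma). It was -0.34 after median centring and -0.43 after quantile normalization, again without overlap. Fgfr3 (ENSMUSG00000054252), a receptor best known for restraining growth of cartilage, measured 6.77 and 6.68 in TEBs, against 7.20 and 7.27 in ducts. The gap of 0.43 log2 units between the nearest TEB and duct arrays exceeded the gaps within structures, 0.08 between the TEB arrays and 0.07 between the duct arrays. Its difference was -0.51, with a 95% interval from -0.96 to -0.05 and an adjusted p of 0.22 from limma. It was -0.62 after median centring and -0.65 after quantile normalization. The Fgfr3 difference exceeded in size that of 69.4% of all genes on the deposited values, 79.0% after median centring and 81.1% after quantile normalization.

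**Figure D2:**
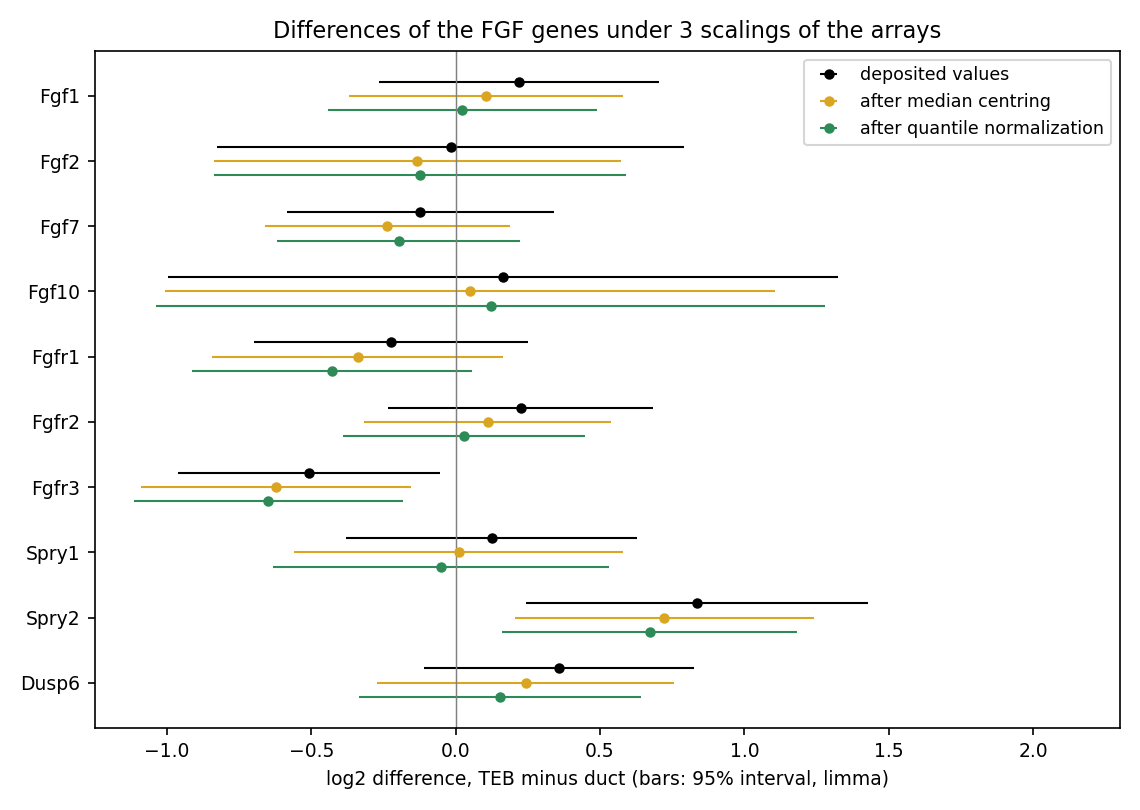
Log2 difference of TEBs minus ducts (horizontal axis) for each FGF gene, with 95% intervals from limma (not adjusted for the number of genes tested), on the deposited values, after median centring and after quantile normalization of the 4 arrays. Spry2 stays to the right of 0 (0.84, 0.72 and 0.67) and Fgfr3 to its left (-0.51, -0.62 and -0.65) with intervals that leave out 0, while the other 8 genes have intervals that include 0.

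A ratio of 2 genes within an array does not depend on how the arrays were centred, so the balance between receptors was also compared in that way. The level of such a ratio is set partly by the probes, and only its change between structures is read here. The Fgfr2 to Fgfr3 log2 ratio was 3.99 and 3.97 on the TEB arrays, against 3.33 and 3.16 on the duct arrays, a shift of 0.73 or 1.66-fold. The Fgfr2 to Fgfr1 log2 ratio was 2.12 and 2.13 on the TEB arrays, against 1.80 and 1.55 on the duct arrays, a shift of 0.45 or 1.37-fold. The Fgfr1 to Fgfr3 log2 ratio shifted by 0.28, also without overlap. Relative to Fgfr1 and Fgfr3, Fgfr2 thus stood higher on both TEB arrays than on either duct array. After quantile normalization the 3 shifts, in the order given, were 0.68, 0.46 and 0.22, each without overlap. The genes' own differences on that scale were 0.029 for Fgfr2, -0.43 for Fgfr1 and -0.65 for Fgfr3. The shifts of the Fgfr2 ratios thus lay mostly in Fgfr1 and Fgfr3 there. Separation of a ratio is common in these data: of all pairs of genes in the table, 51.4% had ratios that did not overlap between the structures. Of the 12 ratios within ligands, receptors and feedback genes, 7 did not overlap, which are all 6 between receptors or between feedback genes and, among the ligands, Fgf1 over Fgf7. These are not separate outcomes. Within 3 genes, the log2 ratio with the largest shift is the sum of the other 2. Fgfr2 over Fgfr3 and Spry2 over Spry1 were therefore bound to separate once the ratios that they sum did. The ratios were taken up after the values were seen and carry no test, and each was turned so that its shift is positive.

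Spry2 (ENSMUSG00000022114), a Sprouty protein that restrains Ras and ERK signalling below receptor tyrosine kinases, had the largest difference of the 10 genes. It measured 8.02 and 8.07 log2 units on the TEB arrays, against 7.43 and 6.99 on the duct arrays. Both TEB arrays lay at least 0.59 log2 units above the duct arrays, more than the gap of 0.05 between the TEB arrays or of 0.44 between the duct arrays. The difference was 0.84 with SE 0.22 and a 95% interval from 0.24 to 1.43, and its adjusted p from limma was 0.18. It was larger in size than the difference of 88.8% of all genes on the deposited values, and of 84.4% and 82.4% after median centring and quantile normalization. It was 0.72 after median centring and 0.67 after quantile normalization, with no overlap in either case. The size depended on the duct arrays, at 1.06 without duct replicate 1 and 0.62 without duct replicate 2. The smallest adjusted p of Spry2 in any setting was 0.056 from limma, reached when only genes above the median brightness were tested.

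Spry1 (ENSMUSG00000037211), its paralogue with a like role, measured 7.76 on both TEB arrays, against 7.50 and 7.77 on the duct arrays. The second duct array lay just above the TEB arrays, and the difference of 0.12 (95% interval -0.38 to 0.63) was 0.010 after median centring and -0.050 after quantile normalization. The log2 ratio of Spry2 to Spry1 within arrays was 0.27 and 0.31 in TEBs, against -0.07 and -0.78 in ducts, a shift of 0.71 that was 0.72 after quantile normalization. The ratio was higher on both TEB arrays than on either duct array, and its SD was 0.032 between the TEB arrays and 0.505 between the duct arrays (n = 2 each).

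Dusp6 (ENSMUSG00000019960), a phosphatase that inactivates ERK and is transcribed in response to it, was brighter than 97.3% of genes over the 4 arrays. It measured 10.92 and 10.98 log2 units in TEBs, against 10.52 and 10.67 in ducts. Both TEB arrays lay above the duct arrays, with a difference of 0.36 (SE 0.18, adjusted p = 0.34 from limma), or 1.28-fold. It was 0.24 after median centring without overlap, and 0.15 with overlap after quantile normalization. When limma's prior variance followed brightness, the unadjusted p of Dusp6 was 0.016 and its adjusted p 0.12 from limma. In that fit 4508 genes higher and 2067 lower in TEBs, of 28399, had an unadjusted p under 0.05 from limma. With that prior on quantile-normalized values, the unadjusted and adjusted p of Dusp6 were 0.26 and 0.54 from limma. The feedback genes had a median difference of 0.36 on the deposited values, 0.24 after median centring and 0.15 after quantile normalization, while the receptors had -0.22, -0.34 and -0.43 in the same order. All genes had 0.11, -0.0060 and 0.0041. Each group median is the value of a single gene, Dusp6 for feedback and Fgfr1 for receptors. Fgfr2 and, after quantile normalization, Spry1 had the opposite sign to the median of their group.

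**Figure D3:**
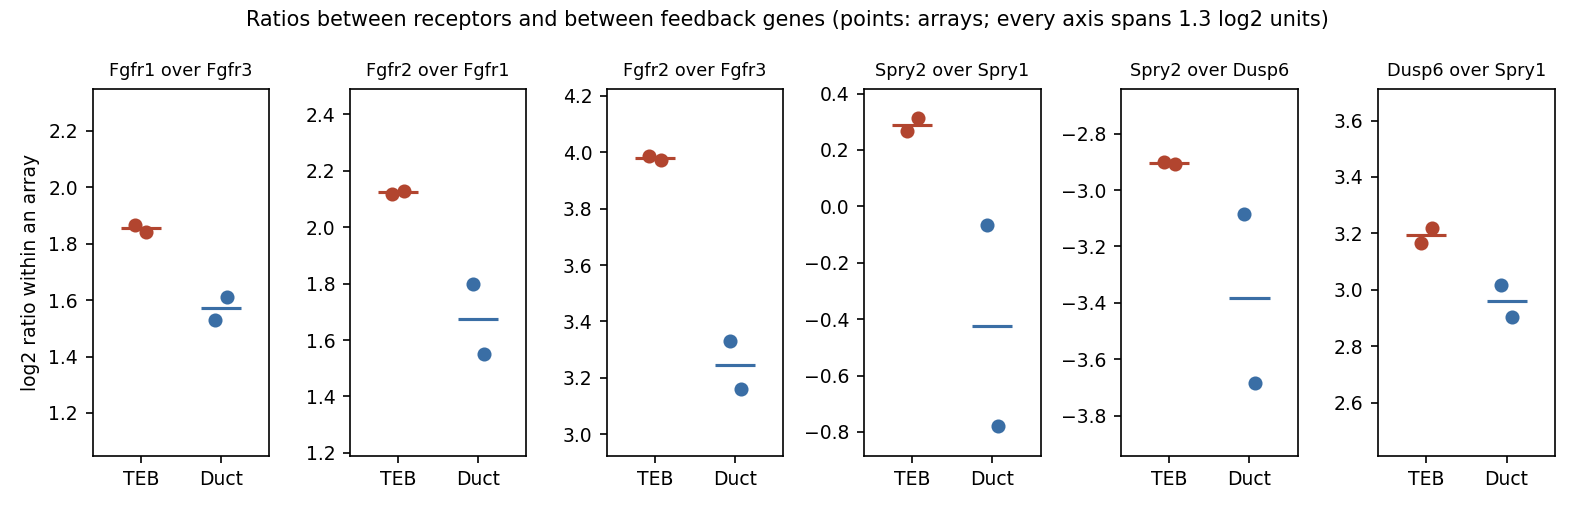
Log2 ratios within single arrays (vertical axes, each spanning 1.3 log2 units) between the receptors and between the feedback genes, for the 2 TEB arrays and the 2 duct arrays. Points are arrays and bars are group means. The TEB arrays lie above the duct arrays in each panel, by a shift of 0.73 for Fgfr2 over Fgfr3 and 0.71 for Spry2 over Spry1, with duct arrays wide apart for the ratios that contain Spry2. The 6 ligand ratios are not drawn, and all of them but Fgf1 over Fgf7 overlapped.

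The stretches before the start sites of the feedback genes are shown because ETS factors act below ERK. They are the 250 bases before the annotated start, from RefSeq on GRCm38.p6, with matches to the ETS core GGAA or its reverse complement TTCC in capitals. The Spry1 stretch is chr3:37639697-37639946 on the plus strand, that of Spry2 is chr14:105896820-105897069 on the minus strand, and that of Dusp6 is chr10:99262981-99263230 on the plus strand.
Spry1: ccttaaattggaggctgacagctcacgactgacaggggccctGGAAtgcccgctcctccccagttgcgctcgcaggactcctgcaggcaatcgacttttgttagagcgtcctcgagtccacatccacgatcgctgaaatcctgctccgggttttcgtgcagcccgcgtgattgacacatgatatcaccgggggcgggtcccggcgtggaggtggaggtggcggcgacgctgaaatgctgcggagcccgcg
Spry2: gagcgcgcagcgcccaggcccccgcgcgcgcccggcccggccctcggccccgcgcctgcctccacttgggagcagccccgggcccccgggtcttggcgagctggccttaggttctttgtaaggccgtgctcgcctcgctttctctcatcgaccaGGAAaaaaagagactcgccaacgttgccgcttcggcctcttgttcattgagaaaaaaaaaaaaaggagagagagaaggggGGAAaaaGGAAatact
Dusp6: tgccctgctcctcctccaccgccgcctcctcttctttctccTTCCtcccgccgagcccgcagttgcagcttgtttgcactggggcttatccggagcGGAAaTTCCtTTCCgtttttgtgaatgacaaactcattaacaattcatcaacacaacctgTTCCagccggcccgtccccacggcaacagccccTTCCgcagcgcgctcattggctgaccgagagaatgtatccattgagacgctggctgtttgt
The Dusp6 stretch held 6 matches, that of Spry2 held 3 and that of Spry1 held 1. The core is found in 93.4% of the 32851 promoter entries of the table, with a median of 3 matches and an upper quartile of 4, which only the Dusp6 stretch of these 3 exceeds. For the 10 genes, entries on 1 chromosome were left out of the search, while the shares over all entries include it. Of the 10 genes, 8 had an entry that was searched, and these 9 entries held 1 to 6 matches, with a median of 2. Whether the other genes have an entry is not stated here. Outside the feedback genes, the Fgfr3 entries held 5 and 1, Fgf7 held 4, Fgfr2 and Fgf10 held 2 each and Fgf2 held 1. The Fgfr3 entry with 5 also lies above the upper quartile of all entries. A longer ETS match, CCGGAAG on either strand, which contains the core, is in 6.91% of all entries and in none of these 9. The AP-1 motif TGACTCA, searched on both strands, is in 4.46% of all entries and in none of these 9. The letters describe the windows only, no binding was measured, and a link between the matches and the genes' values was not tested.

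As a group, the 10 FGF genes had counts and a median not far from those of all genes. On the deposited values 4 of the 10 were higher in TEBs with no overlap between arrays, where 33.8% of all genes were, and 3 were lower with no overlap, where 19.6% of all genes were. After quantile normalization 1 was higher without overlap, where 25.6% of all genes were, and 3 were lower, where 25.9% were. After median centring these were 3 and 3, where 26.5% and 26.0% of all genes were. Their median difference was 0.14 log2 units, beside 0.11 for all genes, and -0.013 after quantile normalization. At least a 1.5-fold difference of group means was found on the deposited values for 24.1% of all genes, and of the 10 for Spry2. After median centring it was found for 23.4% of all genes and after quantile normalization for 22.6%, and under both of these for Spry2 and Fgfr3, with Fgfr3 at 1.54-fold and 1.57-fold lower in TEBs. When limma's prior variance followed brightness, 5.23% of all genes were called and none of the 10 was. The smallest adjusted p among the 10 in that fit was 0.067 from limma, for Spry2.

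**Figure D4:**
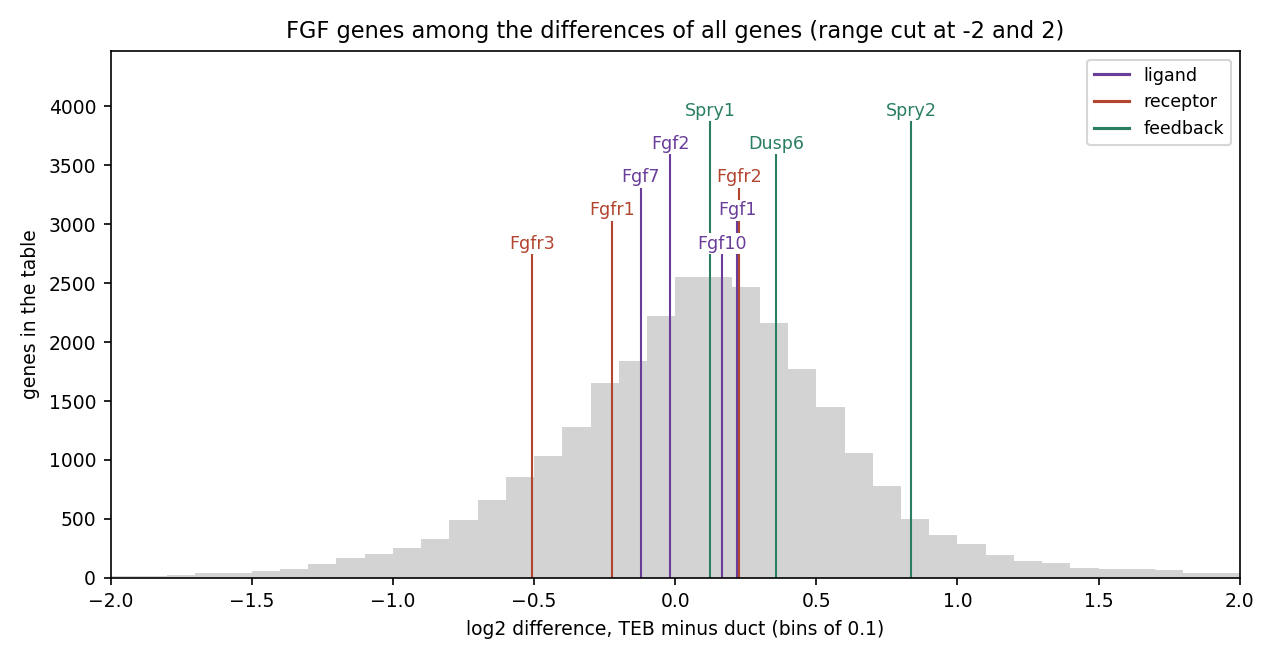
Number of genes in the table (vertical axis) by log2 difference of TEBs minus ducts (horizontal axis, bins of 0.1, shown from -2 to 2), with the 10 FGF genes as lines coloured by role. Spry2 at 0.84 and Fgfr3 at -0.51 lie toward the flanks, and the other 8 genes lie between -0.22 and 0.36.

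The spread between arrays differed among the 10 genes. How the value of an ID was formed is not given. If it was a plain average of numbers with 5 decimals, its decimals set a minimum for how many were averaged. The minimum was taken as the smallest divisor up to 60 that leaves whole units of the fifth decimal, within 0.005 of such a unit. That minimum was 7 for Fgfr1, 6 for Fgfr2, Spry1 and Dusp6, 5 for Fgfr3 and Spry2, 4 for Fgf7, 3 for Fgf10, 2 for Fgf1 and 1 for Fgf2. The residual SD was 0.60 log2 units for Fgf10 and 0.38 for Fgf2, against 0.06 to 0.22 for the other 8 genes. Fgf2 and Fgf10 thus had the least precise differences, with SE 0.30 for Fgf2 and 0.44 for Fgf10. Both genes were higher on replicate 1 than on replicate 2 in each structure, though no label pairs the arrays. In a fit that also took the replicate number into account, SE was 0.20 for Fgf2 and 0.26 for Fgf10. Whether any averaging had a part in the spread was not tested.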

How the data were processed

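Gene expression was measured on 4 single-colour arrays. Per the labels' protocols, 1.5 microg of total RNA was made into biotin-labelled cRNA after removal of ribosomal RNA. For each Ensembl gene ID the deposited table holds a log2 value on every array, made by the authors with RMA, which corrects background, normalizes probes between arrays and summarises them, on build mm9, per the submitters' processing notes. Not given in the sources used here were RMA's version, its settings and the way values per ID were formed. Samples were grouped by title. TEBs were compared with ducts by limma 3.58.1 in R 4.3.3 on all 28399 IDs, without filter or block. Calls required 1.5-fold or more and a Benjamini-Hochberg adjusted p below 0.05. Scripts were tested on simulated data. Other pathway genes and cell type markers had been listed by symbol, but the reference holds no Ensembl IDs, so neither list was used. The rule was to name all 10 members. Members and lists were chosen with earlier results of these data known. Same-numbered arrays' deviations correlated with r = 0.086, and no label pairs them, so numbers were not treated as pairs. Array data have no read depth, and the number of arrays limits precision.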

Additional observations from a re-analysis of the deposited data

How the results depend on the processing

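None of the 10 FGF genes was called in any setting run: quantile normalization, median centring, a brightness filter, a prior variance that follows brightness, robust moderation, the replicate number as a block, other thresholds and the fits without single arrays. Fgf7 and Fgf10 are below the median brightness and were not tested under the filter. Of all 28399 genes, 0 were called on the deposited values and 549 at an adjusted p under 0.10. The count was 1485 of 28399 with the prior that follows brightness. It was 1466 of 28399 with that prior on quantile-normalized values (chosen after seeing the data). Above the median brightness, where fewer genes were tested, it was 1426 of 14199. A fit blocked on replicate number called 0 genes, and the Spry2 difference of 0.84 had an adjusted p of 0.22 from limma. Spry1 turned to -0.050 after quantile normalization with either prior. Without single arrays Spry1 ran from -0.012 to 0.26, Fgf2 from -0.37 to 0.34 and Fgf10 from -0.40 to 0.73, each changing sign, while Spry2 ran from 0.62 to 1.06, Fgfr3 from -0.55 to -0.47, Fgfr2 from 0.18 to 0.28, Dusp6 from 0.28 to 0.44, Fgf1 from 0.13 to 0.31, Fgfr1 from -0.30 to -0.15 and Fgf7 from -0.19 to -0.057. Members higher without overlap numbered 1 after quantile normalization, against 4 on the deposited values. Without single arrays those higher numbered 4 to 6 and those lower 3 to 5, but a lone array in a group makes overlap less likely. In the same fits 43.5% to 50.02% of all genes were higher without overlap, and 28.9% to 32.2% were lower. The median difference of the 10 genes, 0.14, was -0.013 after quantile normalization, 0.030 after median centring and 0.0017 to 0.28 without single arrays. The cause of these shifts was not tested. Signal over background, which limits dim genes such as Fgf7 and Fgf10, is unknown here.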
